A study of Rattus norvegicus with 288 samples.

Results

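Ribosome biogenesis genes code for the proteins that transcribe, process and package ribosomal RNA before a ribosome can translate. A list of 40 such genes was followed in rats given temsirolimus, sunitinib, sorafenib or their combinations. A gene was taken where a probe set on the array carried its symbol alone, and the probe set with the highest mean signal in each tissue stood for the gene. This gave 39 of the 40 genes among 14218 genes in all. The gene left out, Npm1, had 3 probe sets and each of them also carried the symbol of a pseudogene, Npm1-ps9. By role, the 39 genes were 2 subunits of RNA polymerase I, 8 proteins of small nucleolar ribonucleoproteins, 13 factors of the small ribosomal subunit, 12 factors of the large subunit and 4 other nucleolar proteins.

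The animals were 96 male Sprague Dawley rats, 7 to 8 weeks old. Each received an intravenous dose of temsirolimus (0.3 mg/kg) or its vehicle (TEM vehicle), and then an oral dose of sunitinib (5 mg/kg), sorafenib (25 mg/kg), sterile water, or a mixture of Pluronic F68, propylene glycol and polyethylene glycol (F68/PG/PEG400, here F68). Water was the vehicle of sunitinib and F68 that of sorafenib, so that 8 treatments resulted, each with 4 rats killed 1, 6 or 24 h after dosing. RNA of bone marrow, heart and liver of every rat was hybridised to Affymetrix whole-genome rat arrays, 288 in all. All rats received both an intravenous and an oral dose, so no group was undosed, and the sunitinib and sorafenib doses differ.

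Ribosomal RNA is made in the nucleolus by RNA polymerase I as a long precursor, which small nucleolar RNAs guide enzymes to modify and cut. Assembly factors then fold the precursor with ribosomal proteins into a small and a large subunit and leave before export to the cytoplasm. Temsirolimus inhibits mTOR, a kinase that promotes ribosome production as part of cell growth. Sunitinib and sorafenib inhibit several tyrosine kinases, including receptors of vascular endothelial growth factor, and sorafenib also inhibits Raf kinases. Bone marrow, in which blood cells divide throughout life, has a high demand for new ribosomes, whereas most cells of the adult heart and liver rarely divide.

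Values are log2 signals after robust multi-array averaging (RMA), so differences are log2 ratios. A gene was called changed where its p-value, adjusted by the Benjamini-Hochberg method over all 14218 genes from limma's moderated test, was under 0.05. An increase is called a rise and a decrease a fall where that test was passed, and other differences are given as values. Some counts of the genes are at an unadjusted p under 0.05, whereas every share of all genes called uses the adjusted p. These thresholds are unlike, so such a count is not to be set against the share beside it. In bulk tissue, fewer cells of one type and less RNA per cell cannot be told apart.

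Some arrays stood apart from the others. The mean absolute difference of an array from its group, over all genes, had a median of 0.166 in marrow, 0.143 in heart and 0.142 in liver, but was 0.843 for the marrow array of rat 4M45 (temsirolimus and F68, 6 h) and 0.783 for the liver array of rat 7M78 (sunitinib, 24 h). The defining markers of the labelled tissue were high in each tissue, as hepatocyte markers averaged 14.06 to 14.55 in liver arrays, cardiac muscle markers 13.91 to 14.40 in heart arrays and erythroid markers 11.53 to 13.09 in marrow arrays. The heart arrays also held hepatocyte markers at very different levels. Their mean over 14 genes exceeded 8 in 16 heart arrays of temsirolimus rats and in 4 of rats given the TEM vehicle, against 5.07 to 6.10 in marrow, and it reached 14.01 in rat 6M68 (temsirolimus and sorafenib, 1 h). The effects of temsirolimus and of each oral drug that involve the arrays of rats 4M45, 6M68 and 7M78 are given with and without them.

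RefSeq promoters of the GRCr8 build were matched to 36 of the 40 genes, and the 250 bases upstream of each start were searched on both strands, counting a match whether or not it overlapped another motif. The E-box CACGTG, which reads the same on both strands and is bound by Myc-Max and related factors, was found in 7 of 36 (19.4%), against 5.59% of all 33469 promoters. The letters CCGGAAG, which ETS factors bind, were found in 36.1% of the genes and 7.27% of all promoters, and the GC box GGGCGG in 66.7% and 30.5%. Of the 15 matched genes that fell in marrow 24 h after sorafenib, which is described below, 5 held the E-box (33.3%), against 2 of the other 21 (9.52%). The same split went the other way for CCGGAAG, at 26.7% against 42.9%, and was level for the GC box, at 66.7% in each. The other 21 include Npm1, which was not tested and held no E-box. These are matches of letters and carry no measurement of binding. The upstream sequences of the 3 genes with an E-box and the lowest p-values in that comparison are shown 5′ to 3′, with the E-box in capitals. They lie at chr10:57555208-57555457 (plus strand, Mybbp1a), chr7:25102850-25103099 (minus strand, Utp20) and chr1:9398558-9398807 (minus strand, Ltv1), and each ends at the base before the annotated start.
Mybbp1a: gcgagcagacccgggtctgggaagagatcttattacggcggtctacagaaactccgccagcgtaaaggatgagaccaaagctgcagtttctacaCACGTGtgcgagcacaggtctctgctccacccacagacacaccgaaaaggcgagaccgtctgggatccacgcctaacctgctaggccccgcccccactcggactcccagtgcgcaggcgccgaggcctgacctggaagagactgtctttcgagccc
Utp20: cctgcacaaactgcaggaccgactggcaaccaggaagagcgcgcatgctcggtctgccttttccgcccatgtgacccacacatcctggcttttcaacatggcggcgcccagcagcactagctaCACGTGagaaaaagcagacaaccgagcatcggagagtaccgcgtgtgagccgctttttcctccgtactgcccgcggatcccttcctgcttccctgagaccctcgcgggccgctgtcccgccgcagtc
Ltv1: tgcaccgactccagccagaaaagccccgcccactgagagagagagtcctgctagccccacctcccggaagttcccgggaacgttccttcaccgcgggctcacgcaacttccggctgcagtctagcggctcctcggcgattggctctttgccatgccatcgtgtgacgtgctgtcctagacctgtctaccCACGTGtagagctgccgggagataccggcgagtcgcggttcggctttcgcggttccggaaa
The E-box lay 156 to 151 bases upstream of the start in Mybbp1a, 127 to 122 bases in Utp20 and 61 to 56 bases in Ltv1.

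In the 24 rats given vehicles only, the median signal of the 39 genes was 9.18 in marrow, 8.63 in heart and 8.87 in liver. Signals of different probe sets are not amounts of RNA, so they show only which probe sets were bright. The brightest were Ncl (12.00 ± 0.12, SD, n = 24), Nop56 (11.73 ± 0.10) and Fbl (11.24 ± 0.09) in marrow, Ncl (11.08 ± 0.13), Nop58 (9.95 ± 0.27) and Nop56 (9.77 ± 0.10) in heart, and Ncl (11.24 ± 0.15), Gnl3 (10.29 ± 0.30) and Nhp2 (10.27 ± 0.22) in liver. Ncl codes for nucleolin, an abundant nucleolar protein, Fbl for fibrillarin, the methyltransferase of box C/D ribonucleoproteins, and Nop56 and Nop58 for their core proteins. The dimmest were Noc3l (4.01 ± 0.11), Nop14 (7.31 ± 0.09) and Polr1a (7.42 ± 0.13) in marrow, Noc3l (4.41 ± 0.12), Heatr1 (6.17 ± 0.17) and Nop14 (6.86 ± 0.15) in heart, and Noc3l (4.56 ± 0.10), Nop14 (6.78 ± 0.16) and Heatr1 (7.22 ± 0.23) in liver. Noc3l was the only one of the 39 under 6 in any tissue.

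**Figure D1:**
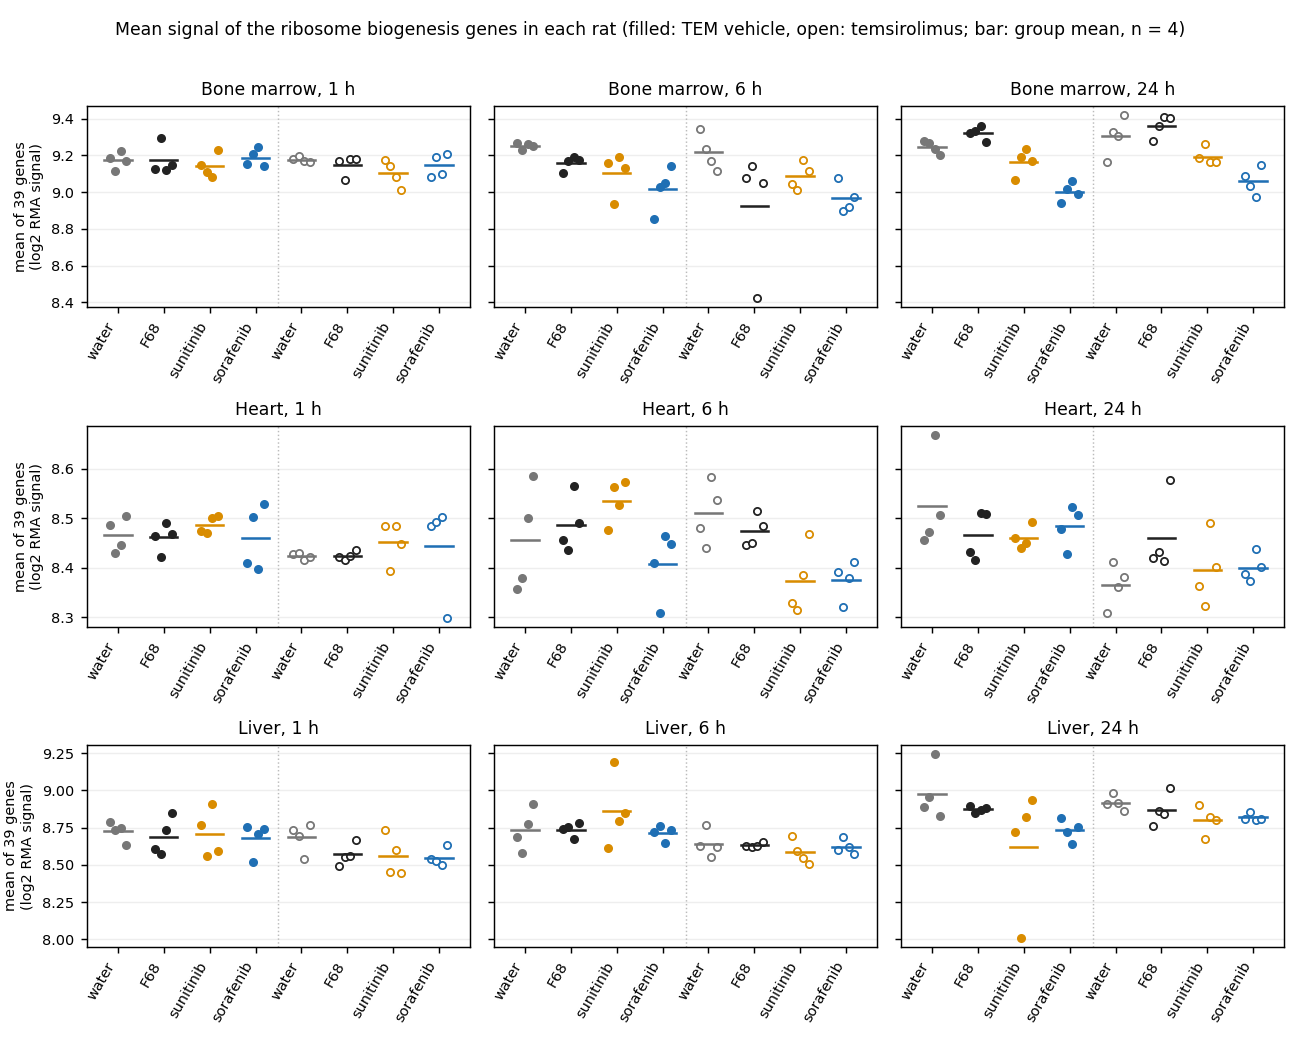
Mean log2 signal of the 39 ribosome biogenesis genes in each rat (points, filled for TEM vehicle and open for temsirolimus) by oral treatment, with the mean of each group of 4 rats (bars), for each tissue and time. In marrow at 24 h the sorafenib rats lie at 8.94 to 9.06 and the F68 rats at 9.27 to 9.36; the lone low points are rat 4M45 in marrow at 6 h (8.42) and rat 7M78 in liver at 24 h (8.01). The vertical scale differs between tissues.

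Sorafenib gave the broadest change, in bone marrow at 24 h. Of the 39 genes, 18 fell (46.2%) and none rose, while 3.31% of all genes tested fell. The estimate was below 0 for 38 of the 39, with a median change of -0.36, against 0.00 over all genes. For 30 genes the highest of the 4 sorafenib rats was below the lowest of the 4 F68 rats. This count is given without its share over all genes. The mean over the 39 genes was 8.94, 9.02, 9.06 and 8.99 in the sorafenib rats and 9.32, 9.33, 9.36 and 9.27 in the F68 rats. No sorafenib rat reached the level of any F68 rat.

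Of the 18 genes that fell, 9 were small-subunit factors, of 13 measured, with a median change of -0.36. Utp20, a large scaffold protein of the small-subunit precursor, read 7.95, 8.05, 8.20 and 8.55 in the sorafenib rats and 8.46, 8.63, 8.98 and 8.87 in the F68 rats. The highest sorafenib rat overlapped the lowest F68 rat, and the fall was 0.55 ± 0.11 on the log2 scale (SE; adjusted p = 0.00132, limma). Pno1, which binds the precursor near the final cleavage site, read 8.54, 8.62, 8.65 and 8.42 after sorafenib and 8.96, 9.19, 9.04 and 8.92 after F68. The groups did not overlap, and Pno1 fell by 0.47 ± 0.09 (adjusted p = 0.000703). Nob1, the endonuclease that makes this cleavage, had the lowest p-value of all 39, with 9.10, 9.13, 9.09 and 8.94 against 9.60, 9.55, 9.44 and 9.27. It fell by 0.40 ± 0.06 (adjusted p = 4.25e-05), again without overlap. Ltv1, an export-stage assembly factor, fell by 0.44 ± 0.10 (adjusted p = 0.0032), from 9.23 ± 0.05 to 8.79 ± 0.20 (SD, n = 4), without overlap. Tsr1, a factor of the same late particles that resembles a translation GTPase, went from 10.53 ± 0.10 to 10.15 ± 0.07. Noc4l, Utp4, Heatr1 and Wdr43 also fell, by 0.32 to 0.37, whereas Utp15, Nop14, Bysl and Rrp12 did not pass.

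Rrp12, an export factor of pre-ribosomes, was the only gene of the 39 above 0, at +0.44 ± 0.14 (adjusted p = 0.0562). Its values were 9.75, 9.63, 9.87 and 10.11 after sorafenib and 9.17, 9.46, 9.57 and 9.40 after F68. It has 3 probe sets of its own, and these disagreed, since the other two read -0.35 ± 0.13 and -0.15 ± 0.09. The brightest probe set, which the rule takes, was thus the one that pointed upwards, and with the mean of all 3 the change was -0.02 ± 0.07. Rrp12 passed as a rise under 4 alternatives, a mean signal of at least 6, renewed quantile normalization, without rat 3 of every group, and without the array of rat 4M45, where the adjusted p was 0.0111. Rat 4M45 is rat 3 of its group, so the run without rat 3 leaves out that array too.

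Of the 12 large-subunit factors 5 fell, with a median of -0.31. Ebna1bp2, a nucleolar factor of the large-subunit precursor, changed most of all 39. It read 10.13, 10.34, 10.23 and 10.03 after sorafenib and 10.81, 10.91, 10.74 and 10.50 after F68, with every sorafenib rat under every F68 rat. The fall was 0.56 ± 0.13 (adjusted p = 0.00432), which is 1.47-fold. Wdr12 and Bop1, which form a complex with Pes1 that large-subunit maturation needs, fell by 0.41 ± 0.09 (adjusted p = 0.00227) and 0.29 ± 0.07 (adjusted p = 0.00401), and Pes1 itself stood at -0.40 ± 0.18 without passing. Rrs1 and Noc2l fell by 0.34 ± 0.10 and 0.31 ± 0.08. The 7 others, among them Nop2, Nip7 and Gnl2, ranged from -0.40 to -0.16.

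Among the proteins that act with small nucleolar RNAs, 2 of 8 fell, although their median was -0.39. Fbl read 10.86, 11.07, 11.02 and 10.88 after sorafenib and 11.38, 11.40, 11.41 and 11.31 after F68. The fall was 0.42 ± 0.10 (adjusted p = 0.00838), without overlap between the groups. Nop56 had the smallest fall called, 0.25 ± 0.07 (adjusted p = 0.0265), and its values were tight at 11.53 to 11.63 against 11.71 to 11.92. Nolc1, a chaperone of these particles, showed the largest estimate of its group, -0.52, but its SE of 0.21 left it uncalled (adjusted p = 0.157). It has 4 probe sets, and these disagreed. The others read -0.11 ± 0.11, -0.56 ± 0.19 and +0.11 ± 0.10, at mean signals of 9.36, 6.95 and 4.44. Rrp9 hardly moved, at -0.02 ± 0.12.

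Of the 4 other nucleolar proteins, Gnl3 and Mybbp1a fell. Gnl3, or nucleostemin, is a nucleolar GTPase known from stem and proliferating cells. It read 9.44, 9.84, 9.63 and 9.56 after sorafenib and 10.12, 10.21, 10.08 and 9.96 after F68, a fall of 0.47 ± 0.11 (adjusted p = 0.00648) without overlap. Mybbp1a, a nucleolar protein that binds Myb, read 10.01, 9.91, 10.32 and 10.28 against 10.54, 10.44, 10.65 and 10.64 and fell by 0.44 ± 0.08 (adjusted p = 0.000109). The polymerase I subunits did not pass, with Polr1b at -0.35 ± 0.13 (adjusted p = 0.114) and Polr1a at -0.18 ± 0.08 (adjusted p = 0.225). The 3 probe sets that Npm1 shares with its pseudogene averaged 9.70 ± 0.17, 12.88 ± 0.11 and 11.98 ± 0.13 after sorafenib and 10.25 ± 0.17, 13.19 ± 0.10 and 12.34 ± 0.14 after F68 (SD, n = 4), and were not tested.

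A second set of rats had received temsirolimus before the same oral agents, and it shares no array with the first. There 10 genes fell after sorafenib (25.6%) and none rose, against 1.09% of all genes that fell. All 39 estimates were below 0, with a median of -0.33. The mean over the 39 genes was 9.06 ± 0.08 with sorafenib and 9.36 ± 0.06 with F68 (SD, n = 4), against 9.32 ± 0.04 with F68 and no temsirolimus. Fbl, Mybbp1a, Noc2l, Noc4l, Pno1, Rrs1, Tsr1 and Wdr43 fell in both sets of rats, which is 8 of 18 and 8 of 10, and 38 genes were below 0 in both. Pno1 read 8.62, 8.72, 8.35 and 8.60 with sorafenib after temsirolimus and 8.96, 9.21, 8.98 and 9.14 with F68 after temsirolimus, and fell by 0.50 ± 0.09 (adjusted p = 0.000997). Mybbp1a fell by 0.46 ± 0.08 (adjusted p = 0.000116). Dkc1, the pseudouridine synthase of box H/ACA particles, and Polr1a, the largest polymerase I subunit, fell only in this set by the test, by 0.36 ± 0.09 and 0.36 ± 0.08. No test of the difference between the sets was passed by any of the 39.

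**Figure D2:**
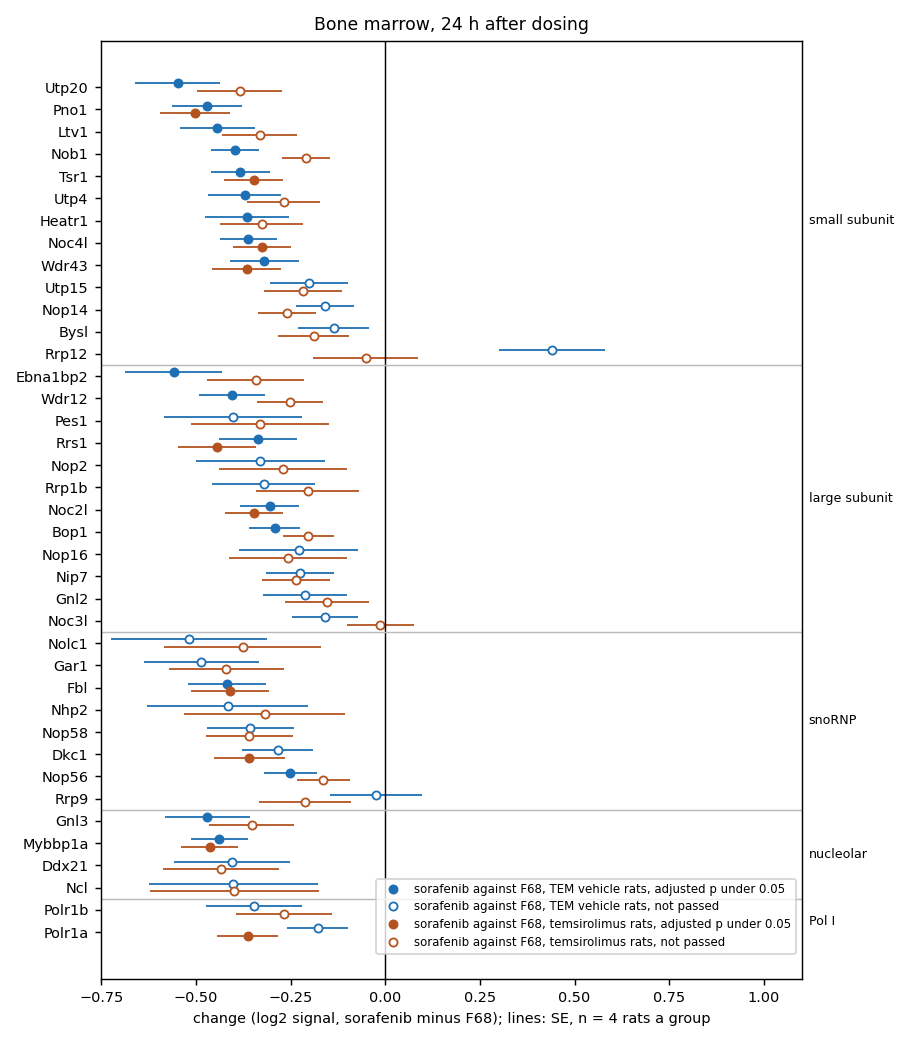
Change in log2 signal (sorafenib minus F68) of the 39 genes in bone marrow at 24 h, in rats given TEM vehicle (blue) and temsirolimus (brown), grouped by role; lines are SEs, n = 4 rats a group, and filled points passed an adjusted p of 0.05. The points lie left of 0 in both sets of rats for 38 genes, and the exception is Rrp12 at +0.44, which was at -0.02 with the mean of its 3 probe sets.

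The estimates were similar within both array sets, which are the rats numbered 1 to 6 and 7 to 12 of each treatment and largely follow the plates in the array names. With 2 rats against 2 in each, the median change was -0.39 and -0.31 after sorafenib alone, and -0.27 and -0.37 after temsirolimus and sorafenib, with 37 of 39 below 0 each time. The number called depended on single rats more than the medians did. Without rat 1, 2, 3 or 4 of every group, 7, 9, 27 and 9 genes were called, with medians from -0.36 to -0.34. The shares of all genes called without each rat are not given here. Leaving out rat 3 of every group also removes the array of rat 4M45. After temsirolimus 10, 2, 3 and 4 were called. The marrow array of rat 4M45 belongs to neither comparison but adds to the common spread. Without it, 30 were called after sorafenib alone, 29 falls and the rise of Rrp12, where 12% of all genes were called. After temsirolimus and sorafenib 26 fell, where 3.68% of all genes were called. Rrp12 is also 1 of the 27. Mybbp1a, Nob1, Pno1, Tsr1 and Utp20 were called under each of the 10 alternative settings tried for sorafenib alone.

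Sunitinib, at a different dose and with water as its vehicle, called none of the 39 genes in marrow at 24 h, with 4 at an unadjusted p under 0.05 and 0.00703% of all genes called by limma. Its median change was -0.08, with 32 genes below 0, and the mean over the 39 was 9.17 ± 0.07 with sunitinib and 9.25 ± 0.03 with water. The lowest p-value was that of Utp20, at -0.34 ± 0.11 (adjusted p = 0.676). After temsirolimus the median was -0.11 with 36 below 0, and again none was called (3 at an unadjusted p under 0.05; 0% of all genes called). The difference of both changes, sorafenib minus sunitinib without temsirolimus, had a median of -0.28. No gene of the 39 passed that test (0.0281% of all genes called), and the lowest p-value was that of Pno1 at -0.49 ± 0.13 (adjusted p = 0.209). At an unadjusted p under 0.05, a looser threshold than that of the share, there were 20 of the 39. Without the marrow array of rat 4M45, which is in none of these groups, 1 of the 39 passed as a fall (0.457% of all genes called). That sorafenib lowered these genes more than sunitinib at the doses given is therefore not established by this test with all arrays. Without that array it rests on 1 gene.

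Other genes of the pathway moved with the 39. From a wider list of ribosome biogenesis factors, 26 of 95 fell after sorafenib in marrow at 24 h and none rose, with a median of -0.23. The largest falls were those of Rpf2 (0.60 ± 0.12), which brings the small ribosomal RNA of the large subunit into the precursor, Tma16 (0.57 ± 0.12) and Urb1 (0.53 ± 0.11). After temsirolimus 12 of the 95 fell. Of 12 other polymerase I subunits and factors 1 fell, Polr1c, by 0.37 ± 0.10 (adjusted p = 0.0312). None of 12 genes of the Myc family and its partners passed, and Myc, a transcription factor known to drive ribosome biogenesis genes, was at -0.35 ± 0.28 (adjusted p = 0.568).

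Marker lists of cells that marrow can hold were read in the same arrays. Proliferation markers averaged 11.18 ± 0.08 with sorafenib and 11.19 ± 0.06 with F68 (SD, n = 4), and none of 11 passed. Erythroid markers averaged 12.97 ± 0.11 and 12.86 ± 0.08, with 1 of 7 rising, and neutrophil markers 12.70 and 12.62, with none of 5 passing. Endothelial markers averaged 8.10 ± 0.22 and 8.35 ± 0.23, with none of 6 passing, and macrophage markers 9.96 ± 0.05 and 9.84 ± 0.07, with none of 8 passing. B cell markers averaged 10.45 ± 0.38 and 10.44 ± 0.34, T and NK cell markers 6.67 ± 0.13 and 6.59 ± 0.15, and adipocyte markers 6.95 ± 0.22 and 6.88 ± 0.37, and none of these 3, 7 and 6 genes passed. Their part in the fall of the ribosome biogenesis genes was not tested.

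Before 24 h, sorafenib alone called none of the 39 genes in marrow. At 1 h none was at an unadjusted p under 0.05 (0% of all genes called), the median was 0.02 and Bysl had the lowest p-value at -0.14 ± 0.09 (adjusted p = 1.00). At 6 h, 36 genes were below 0 with a median of -0.15, 7 were at an unadjusted p under 0.05 (0.0211% of all genes called) and Noc4l led at -0.28 ± 0.08 (adjusted p = 0.171). After temsirolimus at 6 h the control group held the aberrant array of rat 4M45. With it, 2 genes fell (Nop2 and Wdr43; 8.12% of all genes fell) and 3 rose (Ncl, Nhp2 and Rrp1b; 14% of all genes rose), and without it none was called and the median was -0.13. Sunitinib alone called none at 1 h (1 at an unadjusted p under 0.05; 0% of all genes; lowest p for Wdr12, -0.22 ± 0.09, adjusted p = 1.00) or 6 h (11; 0% of all genes; Noc2l, -0.27 ± 0.08, adjusted p = 0.600).

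Temsirolimus alone called no ribosome biogenesis gene in marrow at any time by limma. Here 8 rats of the temsirolimus groups with either oral vehicle were set against 8 of the TEM vehicle groups. At 1 h the median change was -0.01 and 1 gene was at an unadjusted p under 0.05 (0% of all genes called), and Polr1a had the lowest p-value at +0.14 ± 0.06 (adjusted p = 1.00). At 6 h the median was -0.12 with 35 genes below 0 and 19 at an unadjusted p under 0.05 (0% of all genes called), and Heatr1 stood at -0.30 ± 0.08 (adjusted p = 0.157). Rat 4M45 was one of these 8 temsirolimus rats, and its mean over the 39 genes was 8.42 against 9.05 to 9.14 in its group. Without its array none was called either, and the median was -0.04 with 30 genes below 0. At 24 h the median was +0.05, with 30 genes above 0 and 3 at an unadjusted p under 0.05 (0.352% of all genes called), and Rrp12 led at +0.26 ± 0.10 (adjusted p = 0.333). In rats that also had an oral drug, temsirolimus called none at 1 h (0% of all genes), 6 h (0.00703%) or 24 h (0.724%), with 2, 0 and 0 genes at an unadjusted p under 0.05.

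In the heart, temsirolimus lowered 2 small-subunit factors at 24 h, while 0.239% of all genes fell. Tsr1 read 9.19, 9.22, 9.29 and 9.14 in temsirolimus rats with water and 9.28, 9.42, 9.15 and 9.37 with F68. The corresponding vehicle rats read 9.34, 9.47, 9.74 and 9.65 with water and 9.51, 9.36, 9.55 and 9.56 with F68. The groups of 8 touched at their edges, 9.26 ± 0.10 against 9.52 ± 0.14 (SD, n = 8), and the fall was 0.26 ± 0.05 (adjusted p = 0.0144), which is 1.20-fold. Heatr1, a scaffold of the small-subunit precursor that also bears on polymerase I transcription, ranged from 5.69 to 6.16 (median 6.00) with temsirolimus and from 6.04 to 6.47 (median 6.20) without. It fell by 0.26 ± 0.06 (adjusted p = 0.0377), with overlap. The median over the 39 genes was -0.09, and 31 were below 0.

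In rats that also received an oral drug, Tsr1 fell again 24 h after temsirolimus, by 0.25 ± 0.05 (adjusted p = 0.0204), in arrays not used above. It read 9.29, 9.18, 9.31 and 9.28 with temsirolimus and sunitinib and 9.15, 9.19, 9.22 and 9.14 with temsirolimus and sorafenib. Without temsirolimus it read 9.45, 9.50, 9.25 and 9.62 with sunitinib and 9.55, 9.43, 9.52 and 9.47 with sorafenib. One rat without temsirolimus lay among the temsirolimus rats. Nop56 was the other gene of the 39 that fell, by 0.18 ± 0.04 (adjusted p = 0.0357), while 0.239% of all genes fell, and Heatr1 did not pass, at 6.05 ± 0.08 and 6.03 ± 0.06 against 6.08 ± 0.08 and 6.07 ± 0.13. Neither call held in all cases when a rat was left out, as without rat 1, 2 or 3 of every group none of the 39 was called.

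Hepatocyte markers were uneven in these hearts. At 24 h their mean was 6.92 ± 2.06 with temsirolimus and 6.39 ± 0.57 without, the highest array being rat 4M42 at 12.00. With the hepatocyte marker level of each array as a covariate, an alternative chosen after seeing the data, Tsr1 fell by 0.27 ± 0.06 and Heatr1 by 0.26 ± 0.06 (adjusted p = 0.00958 and 0.0375). In rats with an oral drug, Tsr1 fell by 0.26 ± 0.06 and Nop56 stood at -0.17 ± 0.04 without passing (adjusted p = 0.0126 and 0.0558). All 24-h heart arrays with hepatocyte markers over 8 were in 1 array set. In the other set, where the highest was 6.48, the changes were -0.39 for Tsr1 and -0.22 for Heatr1, and in the first set -0.14 and -0.30. Proliferation markers were at 6.86 ± 0.11 with temsirolimus and 7.31 ± 0.35 without, and 1 of 11 fell. Their part in the result was not tested. Without rat 1 or rat 3 of each group neither gene was called, and with F68 rats alone none was.

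**Figure D3:**
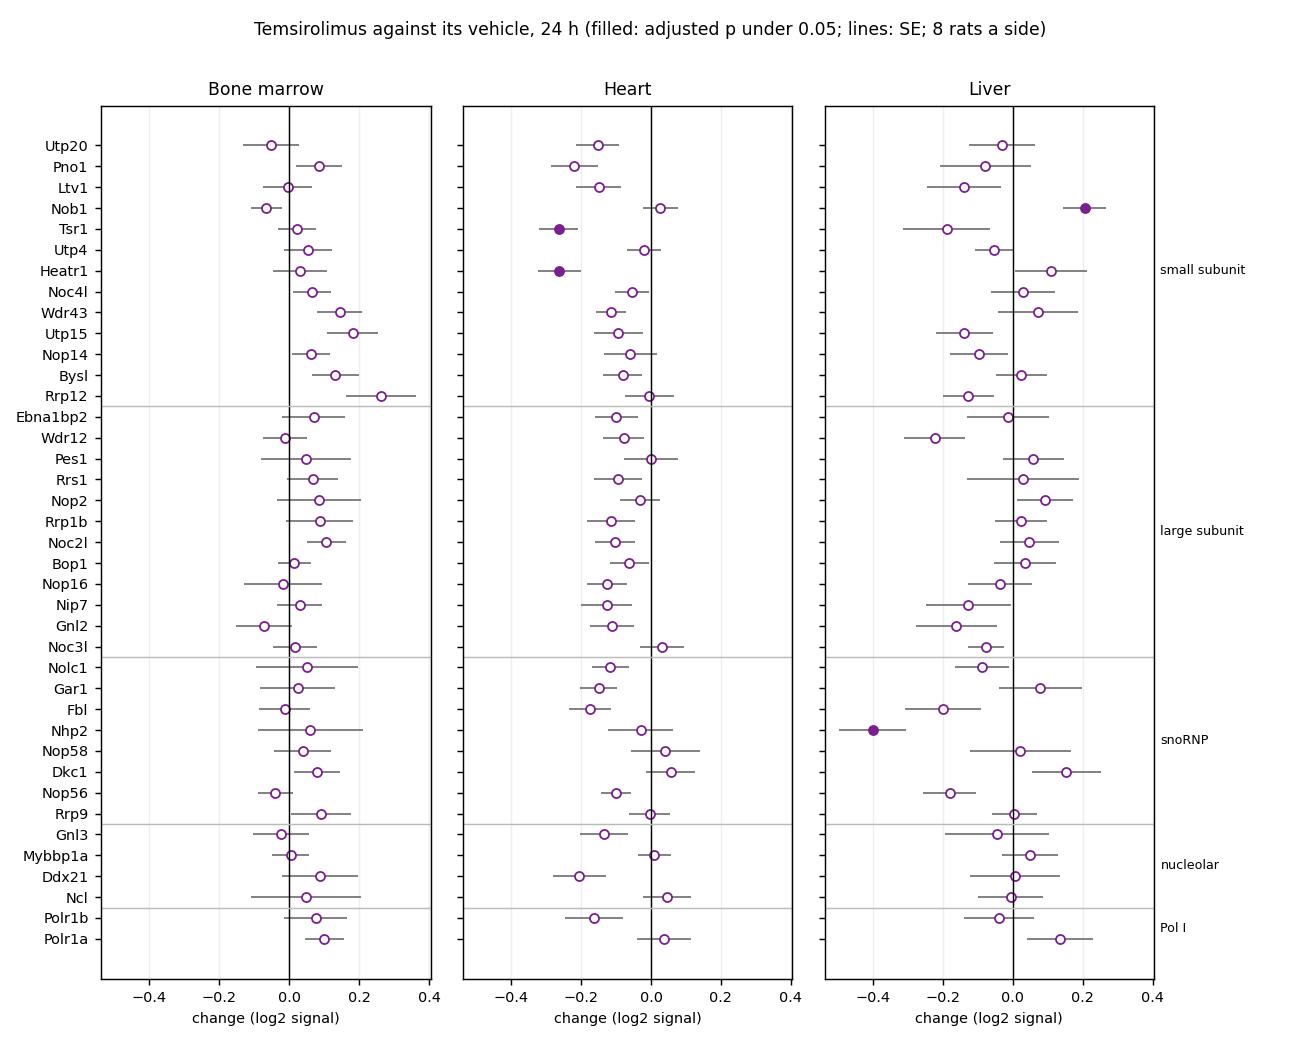
Change in log2 signal 24 h after temsirolimus against TEM vehicle (8 rats a side, with water or F68), by tissue, for the 39 genes grouped by role; lines are SEs and filled points passed an adjusted p of 0.05. Marrow has no filled point, heart has Tsr1 and Heatr1 on the low side, and liver has Nhp2 low (-0.40) and Nob1 high (+0.21).

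At the earlier times temsirolimus alone called none of the 39 in the heart. At 1 h the median was -0.03, with 4 genes at an unadjusted p under 0.05 (0.0141% of all genes called) and Polr1b lowest in p at -0.23 ± 0.08 (adjusted p = 1.00). At 6 h the median was 0.01, with 8 at an unadjusted p under 0.05 (0.183% of all genes called) and Ebna1bp2 at +0.25 ± 0.06 (adjusted p = 0.0708). All 8 temsirolimus arrays over 8 in hepatocyte markers at 6 h were in 1 array set, and Ebna1bp2 passed with that marker level as a covariate, at +0.28 ± 0.07 (adjusted p = 0.0368). With an oral drug, temsirolimus called none at 1 h (4 at an unadjusted p under 0.05; 0.0352% of all genes) or 6 h (18; 0.45% of all genes). Without the array of rat 6M68 neither comparison called any at 1 h, and the median with an oral drug went from -0.03 to 0.01. At 6 h, where that array only adds to the common spread, Ebna1bp2 passed for temsirolimus alone and Gar1, Nop16 and Wdr12 passed as falls with an oral drug.

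Sorafenib changed single genes in the heart. At 1 h, Utp15, a factor that joins the precursor while it is transcribed, read 6.95, 7.22, 7.06 and 6.84 with sorafenib and 7.42, 7.15, 7.53 and 7.52 with F68. One F68 rat lay inside the sorafenib range, and Utp15 fell by 0.39 ± 0.10 (adjusted p = 0.0371), 1 of 39 genes where 1.22% of all genes fell. Without rat 1, 3 or 4 of every group it was not called. In temsirolimus rats at 1 h none was called (1 at an unadjusted p under 0.05; 0.106% of all genes), nor was any without the array of rat 6M68. At 6 h sorafenib alone called none (11 at an unadjusted p under 0.05; 2.98% of all genes), Heatr1 being lowest in p at -0.28 ± 0.09 (adjusted p = 0.0642). After temsirolimus at 6 h 5 of 39 fell, against 1.77% of all genes: Nhp2 by 0.57 ± 0.13, Fbl by 0.35 ± 0.08, Wdr12 by 0.31 ± 0.08, Ebna1bp2 by 0.31 ± 0.09 and Nop56 by 0.21 ± 0.06. Nhp2, a protein of H/ACA particles, read 9.29, 9.12, 9.34 and 9.21 with temsirolimus and sorafenib and 9.47, 9.50, 9.55 and 10.71 with temsirolimus and F68. Rat 4M46, at 10.71, raised the control mean, although the remaining control rats also lay above every rat given sorafenib. Rat 4M46 was the highest of its group for each of these 5 genes, and markers of other cells also differed in its array. Its T and NK cell markers were at 8.64, where the remaining rats of the group had 6.67 to 6.74, its macrophage markers at 10.08 (8.68 to 8.76), its cardiac muscle markers at 14.01 (14.28 to 14.30) and its hepatocyte markers at 6.64. Of 8 macrophage markers 4 fell in this comparison, and of 7 T and NK cell markers none passed. Without this array, an alternative chosen after seeing the data, none of the 39 was called in this comparison, and the median went from -0.07 to -0.10 with 35 genes below 0. The part of those cells in the result was not tested. Without rat 2 or rat 4 of every group none of the 5 was called, and without rat 1 or rat 3 there were 2 and 3. At 24 h sorafenib alone called none (0 at an unadjusted p under 0.05; 0.352% of all genes), with Nob1 at +0.13 ± 0.07 (adjusted p = 0.863).

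With all arrays, sunitinib alone called none of the 39 genes in the heart, although it changed other genes there at 6 and 24 h. At 1 h 1 gene was at an unadjusted p under 0.05 (0% of all genes called; Nob1, +0.14 ± 0.07, adjusted p = 1.00). At 6 h 6 were (2.45% of all genes called), and Gnl2, a GTPase of large-subunit export, stood at +0.29 ± 0.09 (adjusted p = 0.0561). Gnl2 passed without the array of rat 6M68, and without that of rat 4M46 Gnl2, Ebna1bp2 and Wdr12 passed as rises, although neither rat is in this comparison. At 24 h 9 were (3.58% of all genes called), and Ddx21, an RNA helicase of the nucleolus, stood at -0.31 ± 0.11 (adjusted p = 0.0860).

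In the liver, temsirolimus lowered 1 of the 39 genes at 24 h and raised another, and without the array of rat 7M78, which is in neither group, a second fell. Nhp2 read 9.69, 9.97, 9.80 and 10.05 with temsirolimus and water and 9.99, 9.91, 10.16 and 9.97 with temsirolimus and F68. The vehicle rats read 10.43, 10.06, 10.29 and 10.37 with water and 10.34, 10.06, 10.47 and 10.73 with F68. The ranges of the 8 rats a side overlapped only at 10.06 to 10.16, and Nhp2 fell by 0.40 ± 0.10 (adjusted p = 0.0073), the 1 fall among 39 where 2.3% of all genes fell. Nob1 read 9.56 to 9.92 (median 9.80) with temsirolimus and 9.38 to 9.78 (median 9.57) without, and rose by 0.21 ± 0.06 (adjusted p = 0.0409), the 1 rise where 0.788% of all genes rose. Without the array of rat 7M78 the changes of Nhp2 and Nob1 were the same with adjusted p of 0.000489 and 0.011. Wdr12 then fell too, by 0.22 ± 0.07 (adjusted p = 0.0432). So 3 of the 39 were called, where 8.06% of all genes were called in either direction. Without the array of rat 4M48, a temsirolimus rat, Nhp2 alone was called (-0.38 ± 0.10, adjusted p = 0.0273; 1.76% of all genes called). Within the array sets Nhp2 was at -0.33 and -0.47 and Nob1 at +0.21 and +0.20. The median over the 39 was -0.01. From the wider list Nop53, a factor of large-subunit maturation, rose by 0.65 ± 0.11 and Nsa2 by 0.29 ± 0.08, and the other 93 did not pass. Proliferation markers were at 7.01 ± 0.52 with temsirolimus and 7.79 ± 0.72 without, and 4 of 11 fell, and their part was not tested. Leaving out rat 1, 3 or 4 of each group ended both calls.

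At 1 and 6 h temsirolimus alone called none in the liver, with 6 and 5 genes at an unadjusted p under 0.05 (0% of all genes called at each time). The medians were -0.08 and -0.11, and the lowest p-values were those of Nop56 (-0.18 ± 0.08, adjusted p = 1.00) and Nop2 (-0.21 ± 0.08, adjusted p = 1.00). With an oral drug the medians were -0.13 and -0.17, with 38 of 39 genes below 0 at each time and none called (8 and 17 at an unadjusted p under 0.05; 0% and 0.00703% of all genes). At 24 h with an oral drug, Polr1b rose by 0.32 ± 0.10 (adjusted p = 0.0339) and Dkc1 by 0.30 ± 0.10 (adjusted p = 0.0488), 2 genes of the 39 where 5.98% of all genes rose. The controls include rat 7M78, which read 7.05 for Polr1b and 8.26 for Dkc1, against 7.76 to 8.40 and 9.47 to 9.72 in the other 7. Without that array neither passed, and the 1 gene called was Nhp2, which fell by 0.31 ± 0.09 (adjusted p = 0.0224; 3.46% of all genes called).

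Sunitinib at 24 h showed how far 1 array can carry such a set. With all 4 rats, 11 of 39 genes fell in the liver (28.2%), against 7.92% of all genes, and the median was -0.36, against -0.09 over all genes. Without the liver array of rat 7M78, limma called none of the 39 and none of all 14218 genes, and the median was -0.14 with 37 genes still below 0. Nop58 read 9.50, 8.67, 9.78 and 9.95 with sunitinib and 10.00, 10.29, 10.73 and 9.77 with water, the second value being rat 7M78. The change went from -0.73 ± 0.20 (adjusted p = 0.0418) to -0.46 ± 0.21 (adjusted p = 1.00) without it. Tsr1 read 9.66, 8.73, 9.71 and 10.00 against 10.03, 10.21, 10.45 and 9.96, and went from -0.64 to -0.36. Nip7, a factor of large-subunit maturation, read 7.38 in rat 7M78 and 8.85 to 9.27 in the other sunitinib rats against 9.04, 9.19, 9.50 and 9.09 with water, and went from -0.58 to -0.16. In rat 7M78 each was the lowest of the 8 rats by a wide margin. Gnl2 read 7.44, 6.45, 7.65 and 7.78 against 7.62, 7.75, 8.42 and 7.81, and went from -0.57 to -0.28, and its other probe set, at a mean signal of 4.93, stood at +0.22 ± 0.09. The mean over the 39 genes was 8.01 in rat 7M78, and its hepatocyte markers were at 14.06, the lowest of all liver arrays. In temsirolimus rats sunitinib called none at 24 h (5 at an unadjusted p under 0.05; 0.00703% of all genes), with a median of -0.11.

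**Figure D4:**
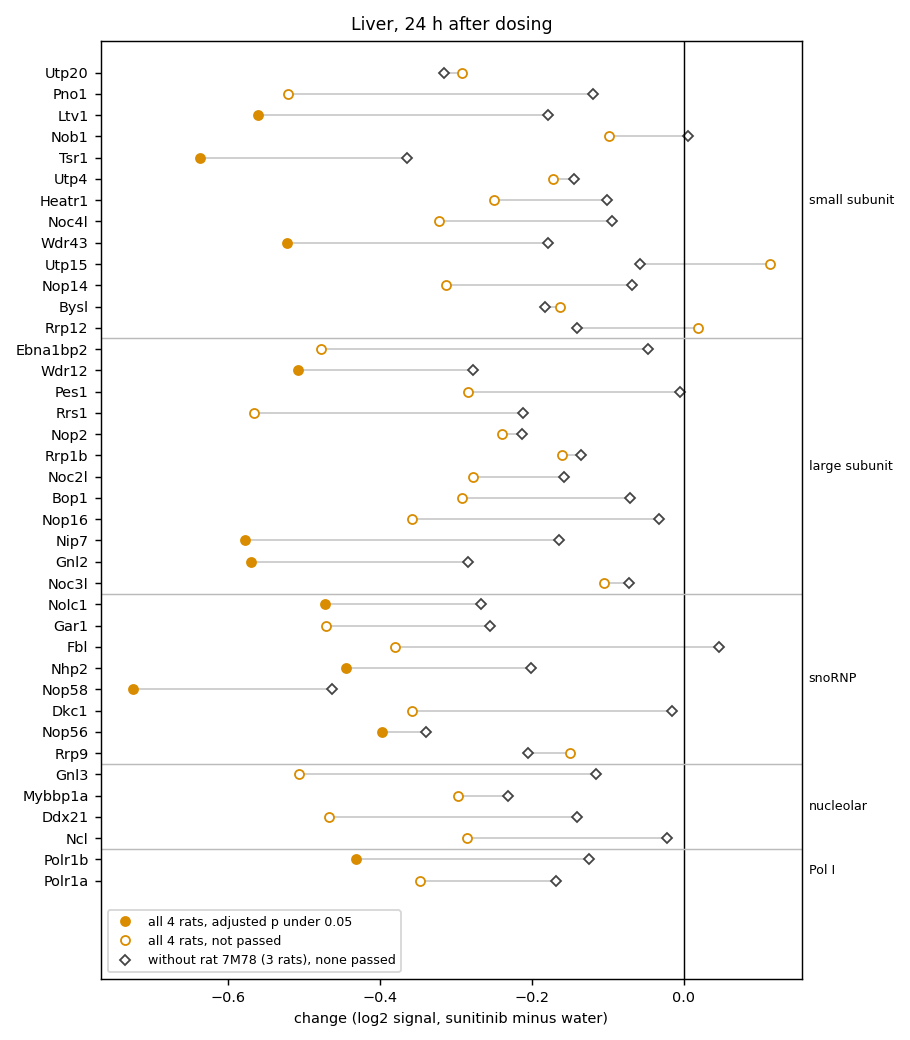
Change in log2 signal (sunitinib minus water) of the 39 genes in liver at 24 h, with all 4 sunitinib rats (circles, filled where the adjusted p was under 0.05) and without rat 7M78 (diamonds). The median moves from -0.36 to -0.14, and no diamond passed the test.

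Sunitinib and sorafenib otherwise called none of the 39 in the liver. Sunitinib had 0 genes at an unadjusted p under 0.05 at 1 h (0% of all genes called; Bysl, -0.13 ± 0.10, adjusted p = 1.00) and 3 at 6 h (0.12%; Rrp9, +0.31 ± 0.09, adjusted p = 0.237). Sorafenib had 0 at 1 h (0%; Bysl, -0.14 ± 0.10, adjusted p = 1.00), 0 at 6 h (0.225%; Bysl, -0.16 ± 0.10, adjusted p = 0.889) and 2 at 24 h (0.0563%; Nolc1, -0.31 ± 0.11, adjusted p = 0.774). At 24 h the median after sorafenib was -0.13, with 33 genes below 0.

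The hours after dosing were compared in the 8 vehicle rats of each time. Time since dosing runs together with time since handling and with the hour of the day, and the array plates differ between times. These cannot be told apart. In the liver 9 of 39 genes differed between times and all 9 were higher at 24 h than at 1 h (23.1%, against 2.47% of all genes called and higher at 24 h). Nop56 averaged 10.08 ± 0.14 at 1 h, 9.98 ± 0.10 at 6 h and 10.38 ± 0.24 at 24 h (SD, n = 8; adjusted p = 0.000545, limma F test). Its lowest, median and highest values were 9.92, 10.04 and 10.34 at 1 h, 9.85, 9.98 and 10.14 at 6 h, and 10.12, 10.35 and 10.90 at 24 h. The ranges of 6 and 24 h barely met. Tsr1 averaged 9.66 ± 0.18, 9.51 ± 0.19 and 10.06 ± 0.19 (adjusted p = 0.00526), and Nolc1 8.97 ± 0.06, 8.91 ± 0.16 and 9.23 ± 0.14 (adjusted p = 0.00848). Ddx21, Nop58, Heatr1, Wdr12, Mybbp1a and Gnl2 were the other 6, by 0.27 to 0.49 from 1 to 24 h. From 1 to 6 h the estimates of Gnl2 and Wdr12 were 0.36 ± 0.12 and 0.11 ± 0.09, and no separate test was made of that step. All but 1 of the 39 genes were above 0 from 1 to 24 h, with a median of +0.21, and of +0.22 and +0.20 within the array sets.

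One rat weighed on this. Rat 1M11 (water, 24 h) was the highest of the 8 vehicle livers at 24 h for 34 of the 39 genes, and none of the 39 was called without rat 1 or rat 3 of every group. Without the liver array of rat 7M78, which is no vehicle array but adds to the spread, 16 were called. The mean over the 39 was 8.71 ± 0.10, 8.74 ± 0.10 and 8.93 ± 0.13 at the 3 times. Proliferation markers averaged 8.26, 7.31 and 7.79, with 8 of 11 lower and 1 higher at 24 h than at 1 h, and their part was not tested. From the wider list 11 of 95 genes passed the F test and were higher at 24 h than at 1 h.

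**Figure D5:**
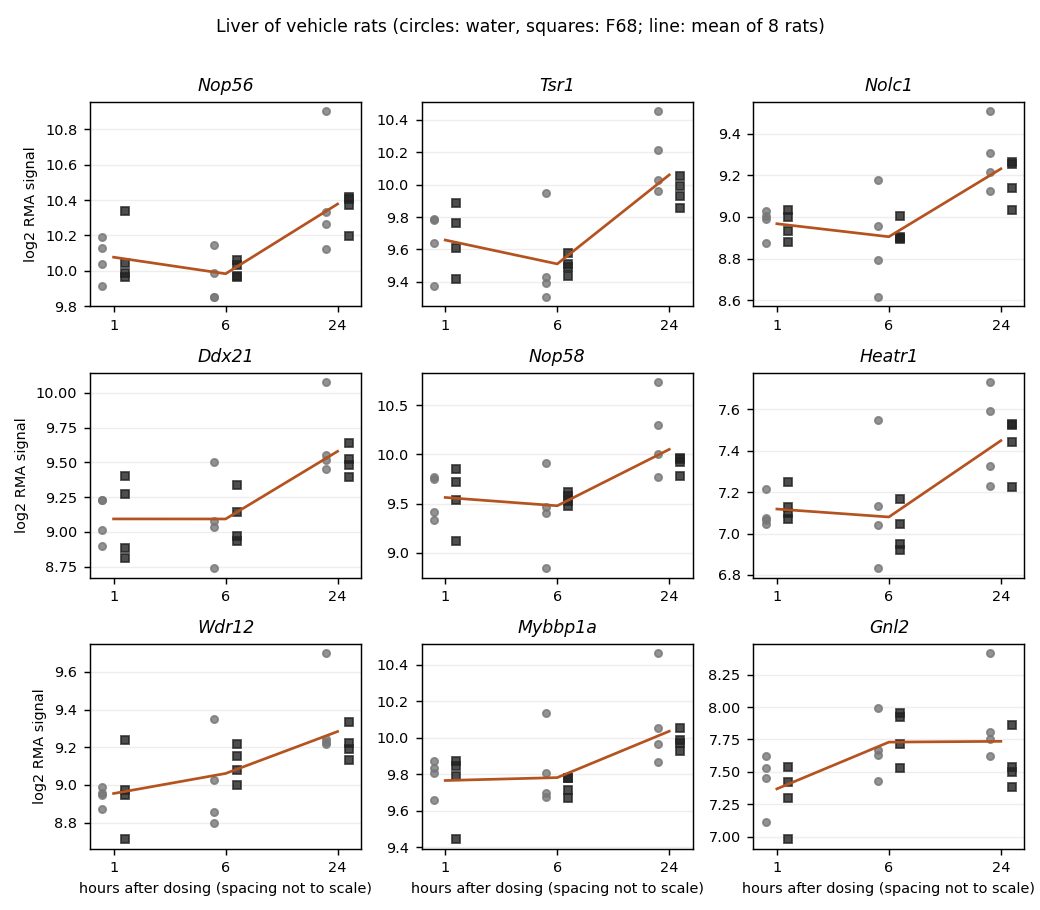
Log2 signal of the 9 genes called for time in the liver of vehicle rats (grey circles water, dark squares F68) at 1, 6 and 24 h, with a line through the mean of 8 rats; each panel has its own vertical scale. The mean is highest at 24 h in every panel, as for Nop56 at 10.38 against 10.08 at 1 h.

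In the heart 1 gene was called for time, Rrs1, a large-subunit factor, where 1.41% of all genes were called and higher at 24 h. It averaged 8.45 ± 0.15 at 1 h, 8.75 ± 0.19 at 6 h and 8.68 ± 0.16 at 24 h (adjusted p = 0.0113), and the times overlapped, since the lowest rats at 6 and 24 h (8.46 and 8.49) were under the highest at 1 h (8.68). Without rat 1, 2 or 3 of every group it was not called. In marrow none was (11 at an unadjusted p under 0.05; 0.281% of all genes called), and Mybbp1a had the lowest p-value (adjusted p = 0.0542).

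The combination was tested as an interaction, that is, whether an oral drug changed a gene differently after temsirolimus. None of the 39 passed in any tissue at any time, and 0% of all genes did. None of the 39 passed either without the arrays of rats 4M45, 6M68 or 7M78. The numbers at an unadjusted p under 0.05 were 0, 5 and 0 in marrow at 1, 6 and 24 h, 2, 14 and 5 in heart and 0, 1 and 3 in liver. Ebna1bp2 in the heart at 6 h came nearest, at -0.47 ± 0.12 for sunitinib and -0.36 ± 0.12 for sorafenib (adjusted p = 0.0888). F68 against water gave none of the 39 in marrow (0% of all genes), heart (0%) or liver (0.0352%), with 3, 3 and 1 at an unadjusted p under 0.05. The change after temsirolimus was also compared between the 3 tissues of the same rats. None of the 39 passed at 1 h (0% of all genes), 6 h (0.443%) or 24 h (1.29%), so that the falls of Tsr1 and Heatr1 in heart and of Nhp2 in liver are not shown to be limited to those tissues. Nhp2 came nearest at 6 h (adjusted p = 0.0528) and Nob1 at 24 h (adjusted p = 0.0702).

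The 39 genes varied together among rats of the same group in marrow and liver more than in heart. After group and array set were removed, the median Pearson correlation over 741 pairs of the genes, across 96 arrays, was 0.36 in marrow, 0.12 in heart and 0.46 in liver. The pairs share arrays, so this is a description. Without rat 7M78 it was 0.38 in liver, without rat 4M45 it was 0.36 in marrow, and without rat 6M68 it was 0.10 in heart. Between these genes and all others the median was between 0.00 and 0.07.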

How the data were processed

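Bone marrow, heart and liver of 96 rats were measured on 288 arrays. The authors deposited log2 values for 31099 probe sets, made by RMA per the submitters' processing notes. The value distributions differed between tissues, so levels were not tested between tissues. Renewed quantile normalization changed the counts of called genes, so the distributions within a tissue are not taken as equal. For sunitinib in liver at 24 h it left 0.0211% of all genes called. The number of arrays limits the precision.

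Platform annotation gave 1 symbol for 20832 probe sets, several for 436 and none for 9831. The brightest probe set per gene and tissue was kept (14218 genes). In each tissue limma 3.58.1 (R 4.3.3) fitted 24 group means and an array-set term within each time. P-values were adjusted by Benjamini-Hochberg over all genes. Temsirolimus was tested over both oral vehicles, each oral drug against its own vehicle, and tissues with the rat as a block. Same-numbered arrays of different tissues come from 1 animal, and their deviations correlated at 0.0954 to 0.130 (median over 96 rats). The genes given in full were up to 4 called genes with the largest change in each comparison of a drug alone (up to 3 by F for time), or the gene with the lowest p-value where none was called. Other genes of the 39 were named to account for their role group, after their values were seen.

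The 40 genes and the lists were chosen with earlier results of these data known. Alternatives were a mean signal of at least 6, renewed quantile normalization, no array-set terms, the mean of all probe sets, leaving out each rat, leaving out the arrays of rats 4M45, 4M48, 6M68 and 7M78, a term for 8 marrow arrays with a mark in their titles, 1 oral vehicle only, and no block on the rat. Chosen after seeing the data were the same drug in temsirolimus rats, the difference between the oral drugs, values within array sets and of every probe set, liver without both 7M78 and 4M48, heart without 4M46, and the hepatocyte marker covariate. Dosing took place on different days, and which rats were dosed on which day is not given in the sources used here. The fit was tested on simulated data. Tables and figures used Python 3.11.15, pandas 2.3.3 and matplotlib 3.10.9.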

Additional observations from a re-analysis of the deposited data

Results flagged for a closer look

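In 6 of 72 groups of 4 rats, the mean log2 signal of the 39 genes in 1 rat lay far from the other 3 by Dixon's criterion. Chance picks out about 1 in 20 such groups. In marrow at 1 h rat 4M38 (temsirolimus and F68) was at 9.07, the others being at 9.17 to 9.18, and rat 2M14 (TEM vehicle and F68) was at 9.29, the others being at 9.12 to 9.15. In marrow at 6 h rat 4M45 (temsirolimus and F68) was at 8.42, the others being at 9.05 to 9.14. In heart at 1 h rat 6M68 (temsirolimus and sorafenib) was at 8.30, the others being at 8.48 to 8.50. In heart at 24 h rat 4M48 (temsirolimus and F68) was at 8.58, the others being at 8.41 to 8.43. In liver at 24 h rat 6M66 (temsirolimus and sorafenib) was at 8.86, the others being at 8.80 to 8.81.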

How the results depend on the processing

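The changes followed gene by gene were those called for a drug alone (up to 4 a comparison) or for time (up to 3). None called for a drug alone changed direction under an alternative run, and over all of them 130 values stayed past the threshold and 61 no longer passed. Rrp12, not called, went from +0.44 to -0.02 after sorafenib in marrow with the mean of all probe sets. The counts below are genes called among the 39, and the causes of the differences were not tested. For sorafenib alone in marrow at 24 h, 18 were called in the main fit. There, quantile normalization gave 13 (median change -0.29), no array-set terms 15 and a mean signal of at least 6 gave 21. Quantile normalization gave 2 for sorafenib in heart at 1 h and 2 at 6 h, 1 in marrow at 6 h, 0 for sunitinib in liver at 24 h, 1 for temsirolimus with an oral drug in heart at 24 h, and 1 between tissues at 6 and at 24 h. Sorafenib or sunitinib in temsirolimus rats was a comparison added after seeing the data. In the main fit sorafenib gave 5 in heart at 6 h, 5 in marrow at 6 h and 10 in marrow at 24 h. These counts were 3, 15 and 9 with quantile normalization, and 1, 2 and 6 without array-set terms. In heart at 1 h sorafenib gave 0 each time. Sunitinib in temsirolimus rats gave 0 in liver at 24 h in the main fit. The mean of all probe sets gave 7 for sunitinib in liver at 24 h, and for temsirolimus with an oral drug 1 in heart at 6 h, 1 at 24 h and 1 in liver at 24 h. No array-set terms gave 1 for temsirolimus alone in heart at 24 h, and with an oral drug 1 in heart and 1 in liver. A mean signal of at least 6 gave 1 between tissues at 6 h, 1 for temsirolimus with an oral drug in heart at 6 h and 1 for time in marrow. F68 rats alone gave 0 for temsirolimus at 24 h in heart and in liver, and 16 in marrow at 6 h, where they include rat 4M45, and water rats alone gave 0 in liver.

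Without rats 4M45 and 4M48, 30 genes were called for sorafenib in marrow at 24 h (12% of all genes). For sorafenib minus sunitinib 1 was called there (0.457% of all genes). That setting also gave 1 for temsirolimus alone in liver at 24 h, 1 between tissues at 6 h and 1 for time in marrow. Without rat 6M68, 1 was called for sunitinib and 1 for temsirolimus alone in heart at 6 h, 3 for temsirolimus with an oral drug there and 1 between tissues. In temsirolimus rats, 6 then fell after sorafenib in heart at 6 h and 1 (Gar1) after sunitinib. Without rat 7M78 there were 0 for sunitinib in liver, 3 for temsirolimus alone (8.06% of all genes) and 1 with an oral drug (3.46%). That run also gave 16 for time, 2 between tissues at 6 h and 1 at 24 h. Without rats 7M78 and 4M48 there were 0 for sunitinib, 2 and 1 for temsirolimus alone and with an oral drug, and 18 for time. Without the heart array of rat 4M46 there were 2 for sorafenib at 1 h and 1 at 6 h, 3 for sunitinib at 6 h and 1 for temsirolimus with an oral drug at 6 h. After temsirolimus there were then 0 for sorafenib and 1 (Gar1, a fall) for sunitinib at 6 h. The omission of both liver arrays, that of 4M46 and the hepatocyte covariate were chosen after seeing the data, and the covariate gave 1 for temsirolimus alone in heart at 6 h and 1 with an oral drug at 24 h.

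Leaving out each rat number in turn gave 0 to 1 for sorafenib in heart at 1 h, 7 to 27 in marrow at 24 h, 0 to 4 and 0 to 1 for sunitinib in heart at 24 and 6 h, and 0 to 29 in liver at 24 h. For temsirolimus alone it gave 0 to 1 in heart and 0 to 2 in liver at 24 h, and 0 to 1 in liver at 6 h. With an oral drug it gave 0 to 1 in heart and 0 to 1 in liver at 24 h, and 0 to 3 in heart at 6 h. It gave 0 to 8 between tissues at 6 h, and for time 0 to 1 in heart and 0 to 8 in liver. Without the replicate block, that is without pairing the tissues of a rat, 0 genes were called between tissues at 1, 6 and 24 h, as with it.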
